A study of Mus musculus with 8 samples.

Results

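The genes described here carry the glucose output and the glycogen store of the liver. They are 9 genes of the 33212 in the deposited count table, chosen by their symbols: Pcx, Pck1, Fbp1 and G6pc of gluconeogenesis, the coactivator gene Ppargc1a, the glycolytic enzyme gene Pklr, the transporter gene Slc2a2, and Gys2 and Pygl of glycogen metabolism. All 9 were found, each in 1 row, and all passed the filter on low counts. RNA was sequenced from the livers of 4 Nnmt KO mice and 4 control mice, with 1 library per mouse. The labels give the genotypes as Nnmt LKO and WT, in strain C57BL/6. By the study's methods, the Nnmt KO mice carried Alb-Cre and Nnmt flox/flox, so that Cre was driven by the albumin promoter in hepatocytes and the other cells of the liver kept the gene. The control mice carried Nnmt flox/flox without Alb-Cre, and all mice were male. Both groups received a diet deficient in methionine and choline (MCD diet) over 8 weeks, so no library represents a normal diet. Whether the mice were fed or fasted when the livers were taken, and at what hour, is not given in the sources used here.

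The liver releases glucose by 2 routes. Gluconeogenesis builds it from pyruvate, lactate, glycerol and amino acids, and glycogen breakdown frees it from the store. Both routes end in glucose-6-phosphate, which glucose-6-phosphatase turns into free glucose. Glucagon, through cyclic AMP and the factor CREB, and glucocorticoids are known to raise the transcription of Pck1, G6pc and Ppargc1a in fasting, while insulin lowers it. Glycolysis, with pyruvate kinase as its last enzyme, runs in the opposite direction and is favoured after feeding. NNMT methylates nicotinamide with S-adenosylmethionine as the methyl donor.

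Total counts ran from 75020072 to 87934362 per library. Levels are given as CPM, counts scaled to library size with TMM factors, and a change is a log2 fold change of Nnmt KO over control from edgeR's quasi-likelihood test, with its standard error (SE). Adjusted p-values follow Benjamini and Hochberg across the 15291 genes tested, and a p before that adjustment is called raw. As the columns carry no mouse number, libraries are lettered a to d within a genotype. Nnmt itself lay between 31.8 and 83 CPM in Nnmt KO mice and between 84.9 and 224 CPM in control mice, a log2 fold change of -1.28 (SE 0.33) with an adjusted p of 0.123. Nnmt KO library a stood apart from the rest, with a TMM factor of 1.21 against 0.876 to 1.06 in the other 7 libraries. Its summed level of 7 hepatocyte markers (Alb, Apoa1, Ttr, Serpina1a, Cps1, Tat and F9) was 62073 CPM, the lowest of the 8 libraries. It was between 96865 and 110841 CPM in the other Nnmt KO mice and between 73146 and 111576 CPM in control mice. Alb alone made up most of this sum, with means of 75662 CPM in Nnmt KO and 72972 CPM in control mice. Of the hepatocyte markers, 0 of 7 had a raw p under 0.05, where 12.6% of all tested genes had, and none was at 0. The marker lists of skeletal muscle, pancreas and kidney each summed to at most 0.273 CPM in any library.

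The promoters of the genes with the largest differences, G6pc, Ppargc1a and Pck1, are shown with that of Pklr, the enzyme of the opposite direction. Each stretch covers the 250 bases before the start of the gene in RefSeq's annotation of GRCm38.p6. A window was found for 8 of the 9 genes, and Gys2 had none in the table used. In the first 3 sequences the capitals mark the letters TTACGTNA or TGACG, related to the cyclic AMP response element (CRE). In the Pklr sequence, from the second of its starts, they mark the form of a carbohydrate response element (ChoRE), paired E-box motifs with a 5-base spacer.
G6pc, chr11:101367466-101367715, plus strand: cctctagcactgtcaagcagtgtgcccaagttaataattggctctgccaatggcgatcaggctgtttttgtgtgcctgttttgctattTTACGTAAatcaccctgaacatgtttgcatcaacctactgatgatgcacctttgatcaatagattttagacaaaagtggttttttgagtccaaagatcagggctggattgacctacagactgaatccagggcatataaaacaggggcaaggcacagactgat
Pck1, chr2:173152823-173153072, plus strand: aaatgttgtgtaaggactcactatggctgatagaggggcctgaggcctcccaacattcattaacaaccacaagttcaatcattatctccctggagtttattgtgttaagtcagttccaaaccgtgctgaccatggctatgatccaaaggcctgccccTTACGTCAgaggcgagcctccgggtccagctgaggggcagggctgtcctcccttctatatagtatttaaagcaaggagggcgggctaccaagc
Ppargc1a, chr5:51567726-51567975, minus strand: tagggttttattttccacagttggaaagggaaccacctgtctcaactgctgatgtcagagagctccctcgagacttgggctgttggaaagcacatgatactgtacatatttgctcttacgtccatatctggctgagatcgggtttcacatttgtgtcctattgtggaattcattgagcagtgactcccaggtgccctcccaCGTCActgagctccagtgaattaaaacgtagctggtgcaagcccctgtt
Pklr, chr3:89136373-89136622, plus strand: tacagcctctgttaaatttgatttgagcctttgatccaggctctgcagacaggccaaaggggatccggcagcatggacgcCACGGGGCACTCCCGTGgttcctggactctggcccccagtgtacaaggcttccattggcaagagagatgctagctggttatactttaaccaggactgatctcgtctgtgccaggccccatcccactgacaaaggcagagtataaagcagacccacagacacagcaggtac

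The motifs were chosen after these sequences were seen, and both strands of the 300-base windows (250 bases before and 50 after the start) were searched. TTACGTNA was found in 2 of 10 windows of the genes, in G6pc as TTACGTAA at position -162 and in Pck1 as TTACGTCA at position -93. It occurs in 0.898% of all 32851 windows. TGACG, the half-site of a CRE, was in 3 windows (Pck1, Ppargc1a and Pygl) and in 20.8% of all windows. In Pck1 it overlaps the TTACGTCA. The complete TGACGTCA was in 0 of 10 windows and in 1.79% of all. The HNF1 motif was in G6pc only among the 10 windows, as GTTAATAATT at position -221, and in 0.399% of all. The ChoRE form was found in Pklr only, as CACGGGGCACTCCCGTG at position -170, and in 0.557% of all windows. GTAAACA (forkhead factors), the glucocorticoid receptor motif and TTGCNNAA (C/EBP) were in 0 of 10 windows, against 3.65%, 0.475% and 10.8% of all. Only fixed letters were searched, so sites of another form were not counted. GENCODE's annotation begins G6pc and Pck1 at bases 101367561 and 173153048, within the stretches shown, so the position of the start depends on the annotation.

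Among the 9 genes, G6pc and Ppargc1a were higher in every Nnmt KO mouse than in any control mouse, and Pck1 was higher on average with overlap. Neither Pklr nor Slc2a2, Pcx, Fbp1, Gys2 or Pygl had a raw p under 0.05. At an adjusted p under 0.05, edgeR's test called 0 of the 9 genes, where it called 0.32% of all tested genes. At a raw p under 0.05, 3 of the 9 were higher in Nnmt KO mice (5.45% of all genes were) and 0 were lower (7.13% of all genes were), together 3 of 9 against 12.6% of all. The libraries of the genotypes did not overlap for 2 of the 9, both higher in Nnmt KO mice. Over all genes, 3.34% were higher without overlap and 4.81% lower, 8.16% in all. DESeq2's Wald test called 2 of the 9, again G6pc and Ppargc1a, at an adjusted p under 0.05, where it called 1.41% of all genes as higher. The median log2 fold change of the 9 genes was 0.22, against 0.02 over all tested genes.

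**Figure D1:**
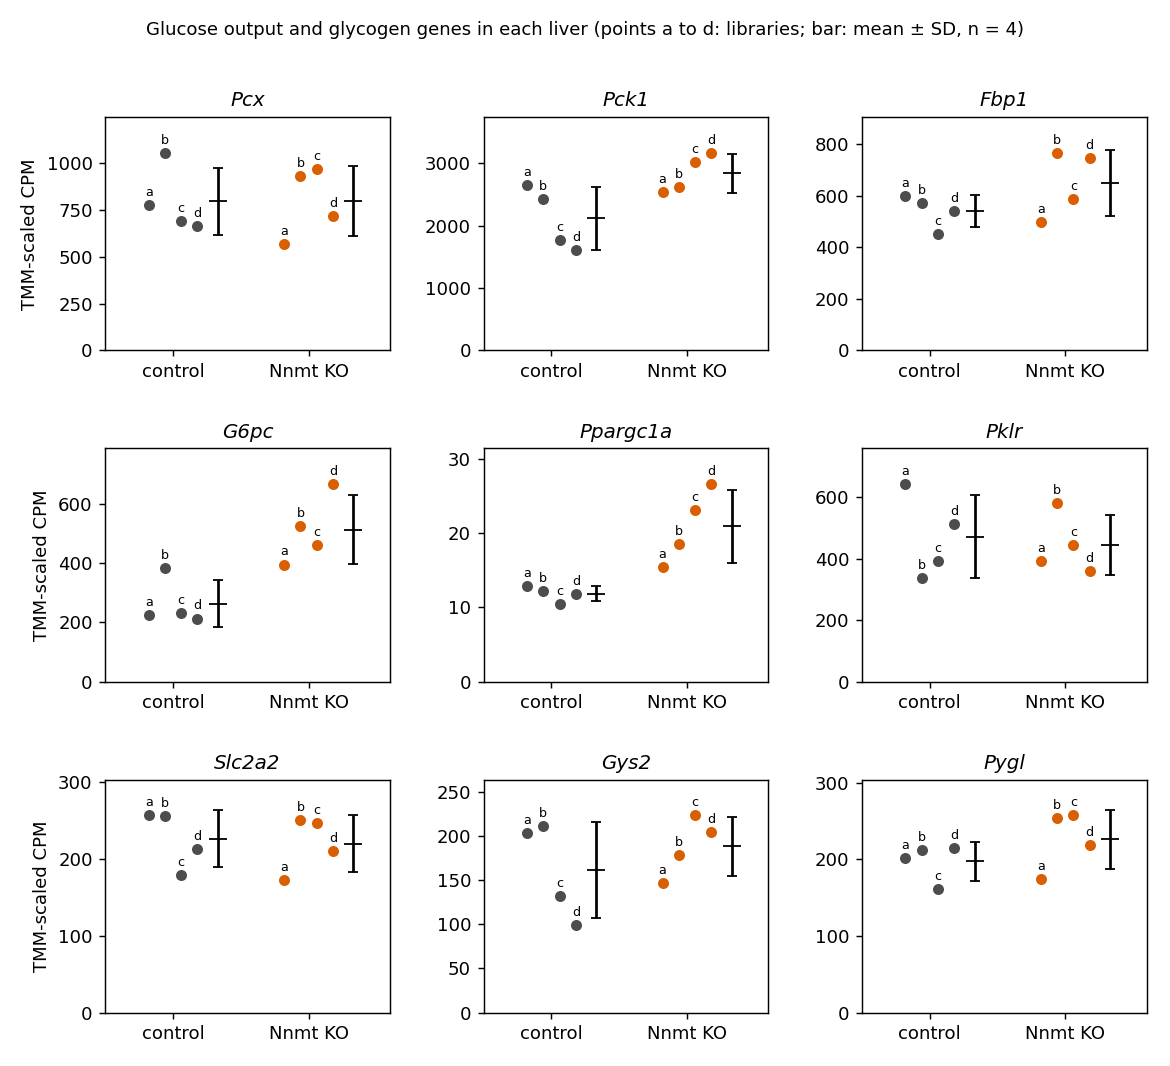
TMM-scaled CPM (vertical axes, from 0) of the 9 genes in the 4 control and 4 Nnmt KO libraries, with the mean ± SD of each genotype. For G6pc and Ppargc1a all orange points lie above all grey points, while the genotypes overlap for the other 7 genes.

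G6pc (ENSMUSG00000078650, chr11:101367561-101377903, plus strand) encodes the catalytic subunit of glucose-6-phosphatase, the last step of both routes of glucose release. It was at 395, 526, 461 and 667 CPM in Nnmt KO a to d, and at 226, 382, 232 and 213 CPM in control a to d. The genotypes did not overlap, but control library b came close to Nnmt KO library a and lay far above the other 3 control libraries. The mean was 512 ± 116 CPM in Nnmt KO mice and 263 ± 79.8 CPM in control mice (SD, n = 4 per genotype). Its log2 fold change was 0.96 (SE 0.22), which is 1.95-fold, with a raw p of 0.000985 and an adjusted p of 0.0907 by edgeR. It ranked 164 of 15291 genes by p. Without control replicate b the log2 fold change was 1.21 (adjusted p = 0.0519 by edgeR), and over the 8 fits with 1 library omitted it lay between 0.81 and 1.21. DESeq2 gave the same size, 0.97 (SE 0.22), with an adjusted p of 0.00142.

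Glucose-6-phosphatase works with a transporter, encoded by Slc37a4, that brings glucose-6-phosphate into the endoplasmic reticulum. Slc37a4 lay between 159 and 271 CPM in Nnmt KO mice and between 196 and 298 CPM in control mice, so the genotypes overlapped. Within each library, the log2 ratio of G6pc to Slc37a4 counts, which needs no scaling between libraries, was 0.82 to 1.54 in Nnmt KO mice and -0.25 to 0.36 in control mice. The ubiquitous isoform gene G6pc3 was at 7.71 ± 0.509 CPM in Nnmt KO and 9.12 ± 0.317 CPM in control mice (SD, n = 4 per genotype), with a log2 fold change of -0.24 (SE 0.12). Its raw p was 0.0629 by edgeR, although the libraries did not overlap. G6pc and G6pc3 thus lay on opposite sides of 0. Whether they differ from each other was not tested.

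Ppargc1a (ENSMUSG00000029167, chr5:51454250-51567726, minus strand) encodes PGC-1alpha, a coactivator of gluconeogenic and mitochondrial genes. It was at 15.4, 18.5, 23.1 and 26.6 CPM in Nnmt KO a to d, and at 12.9, 12.3, 10.5 and 11.8 CPM in control a to d. The control libraries lay close together, with an SD of 8.83% of their mean, whereas the Nnmt KO libraries spread over a wider range, with an SD of 23.5%. The mean was 20.9 ± 4.92 CPM against 11.8 ± 1.05 CPM (SD, n = 4 per genotype), a log2 fold change of 0.82 (SE 0.17) or 1.77-fold. The raw p was 0.000409 and the adjusted p 0.0711 by edgeR, which placed Ppargc1a at rank 87 by p. It stayed between 0.68 and 0.94 with each library left out in turn, and DESeq2's adjusted p was 0.00106. Its relative Ppargc1b, a coactivator gene of the same family, is among the genes of hormonal and transcriptional control counted further on.

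Pck1 (ENSMUSG00000027513, chr2:173153048-173159273, plus strand) encodes the cytosolic phosphoenolpyruvate carboxykinase, the step from oxaloacetate towards glucose. It was the most abundant of the 9 genes and took between 0.171% and 0.306% of all counts of a library. Its level was 2532, 2617, 3021 and 3165 CPM in Nnmt KO a to d, and 2653, 2425, 1772 and 1606 CPM in control a to d. Control libraries b, c and d lay below every Nnmt KO library, and only control library a overlapped with the Nnmt KO mice. The mean was 2834 ± 307 CPM against 2114 ± 504 CPM (SD, n = 4 per genotype). This gave a log2 fold change of 0.42 (SE 0.19), with a raw p of 0.0438 and an adjusted p of 0.381 by edgeR. The raw p was between 0.0558 and 0.121 in 5 of the 8 fits with 1 library omitted, namely Nnmt KO b, c or d and control c or d. Scaled by library size only, its libraries did not overlap, and the raw p was 0.00285. Pck2, the gene of the mitochondrial enzyme, which ATF4 is known to induce, lay the other way, at 28.1 ± 7.61 CPM in Nnmt KO mice and 37.6 ± 5.5 CPM in control mice (SD, n = 4 per genotype). Its log2 fold change was -0.42 (SE 0.19), with an adjusted p of 0.384 by edgeR.

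Fbp1 (ENSMUSG00000069805, chr13:62864753-62888282, minus strand) encodes fructose-bisphosphatase, the gluconeogenic step between those of Pck1 and G6pc. It was at 497, 766, 587 and 747 CPM in Nnmt KO a to d, and at 598, 571, 452 and 542 CPM in control a to d. Nnmt KO libraries b and d were above all control libraries, and Nnmt KO library a was below 3 of them. The log2 fold change was 0.26 (SE 0.16, raw p of 0.135, adjusted p = 0.538 by edgeR). Without Nnmt KO library a it was 0.37, at a raw p of 0.0238, and scaled by library size only it was 0.31, at a raw p of 0.0273. Within a library, the log2 ratio of G6pc to Fbp1 counts was -0.54 to -0.16 in Nnmt KO mice and -1.41 to -0.58 in control mice, so the genotypes did not overlap in the ratio of these enzyme genes of 1 pathway.

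Pcx (ENSMUSG00000024892, chr19:4510472-4621752, plus strand) encodes pyruvate carboxylase, which makes the oxaloacetate that Pck1's enzyme uses. It was at 570, 933, 971 and 719 CPM in Nnmt KO a to d, and at 775, 1055, 689 and 667 CPM in control a to d. The genotypes covered nearly the same range, with means of 798 ± 188 CPM and 797 ± 179 CPM (SD, n = 4 per genotype). Their log2 fold change was 0.0026 (SE 0.20), with an adjusted p of 0.997 by edgeR.

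**Figure D2:**
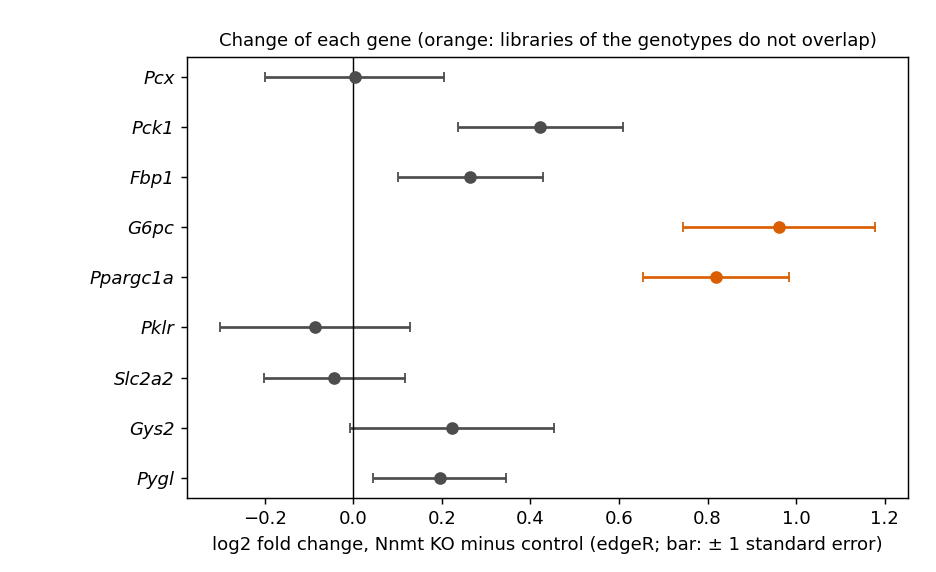
Log2 fold change of Nnmt KO over control (horizontal axis) of each of the 9 genes from edgeR's test, with bars of 1 standard error. G6pc (0.96) and Ppargc1a (0.82), in orange, have libraries that do not overlap, and the values of Pcx, Pklr and Slc2a2 lie within 1 standard error of 0.

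Pklr (ENSMUSG00000041237, chr3:89136142-89146784, plus strand) encodes the liver pyruvate kinase, the last step of glycolysis. It was at 391, 581, 445 and 358 CPM in Nnmt KO a to d, and at 643, 338, 393 and 512 CPM in control a to d. The highest and the lowest value both came from control mice, and the genotypes overlapped fully. The log2 fold change was -0.09 (SE 0.21, adjusted p = 0.899 by edgeR). In GENCODE's annotation its exons share 711 bases with Hcn3 on the opposite strand, and whether the counting used strand is not given in the sources used here, so part of the Pklr counts could come from Hcn3. The log2 ratio of Pck1 to Pklr within a library ran from 2.17 to 3.14 in Nnmt KO mice and from 1.65 to 2.84 in control mice and overlapped.

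Slc2a2 (ENSMUSG00000027690, chr3:28697903-28731359, plus strand) encodes GLUT2, the main glucose transporter of the hepatocyte membrane, which carries glucose in both directions. It was at 172, 250, 247 and 210 CPM in Nnmt KO a to d, and at 257, 256, 179 and 213 CPM in control a to d. The log2 fold change was -0.04 (SE 0.16, adjusted p = 0.934 by edgeR), with every Nnmt KO library below control libraries a and b. The log2 ratio of G6pc to Slc2a2 within a library was 0.90 to 1.67 in Nnmt KO mice and -0.19 to 0.58 in control mice. That of Ppargc1a to Slc2a2 was -3.75 to -2.98 against -4.38 to -4.10, again without overlap.

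The glycogen store is filled by glycogen synthase and emptied by glycogen phosphorylase. Gys2 (ENSMUSG00000030244, chr6:142422613-142473109, minus strand), the gene of the liver synthase, was at 146, 178, 223 and 204 CPM in Nnmt KO a to d, and at 203, 211, 132 and 98.7 CPM in control a to d. Control library d was the lowest of all and control libraries a and b were among the highest, so the control mice covered a wider range than the Nnmt KO mice. The log2 fold change was 0.22 (SE 0.23, adjusted p = 0.731 by edgeR). Pygl (ENSMUSG00000021069, chr12:70190811-70231488, minus strand), the gene of the liver phosphorylase, was at 174, 254, 258 and 218 CPM in Nnmt KO a to d, and at 201, 213, 161 and 215 CPM in control a to d. Nnmt KO libraries b, c and d were above all control libraries, and library a was below 3 of them. Its log2 fold change was 0.19 (SE 0.15, raw p of 0.224, adjusted p = 0.637 by edgeR), and 0.30 without Nnmt KO library a, at a raw p of 0.0424. The log2 ratio of Gys2 to Pygl overlapped between genotypes, from -0.51 to -0.09 in Nnmt KO mice and from -1.12 to 0.01 in control mice.

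**Figure D3:**
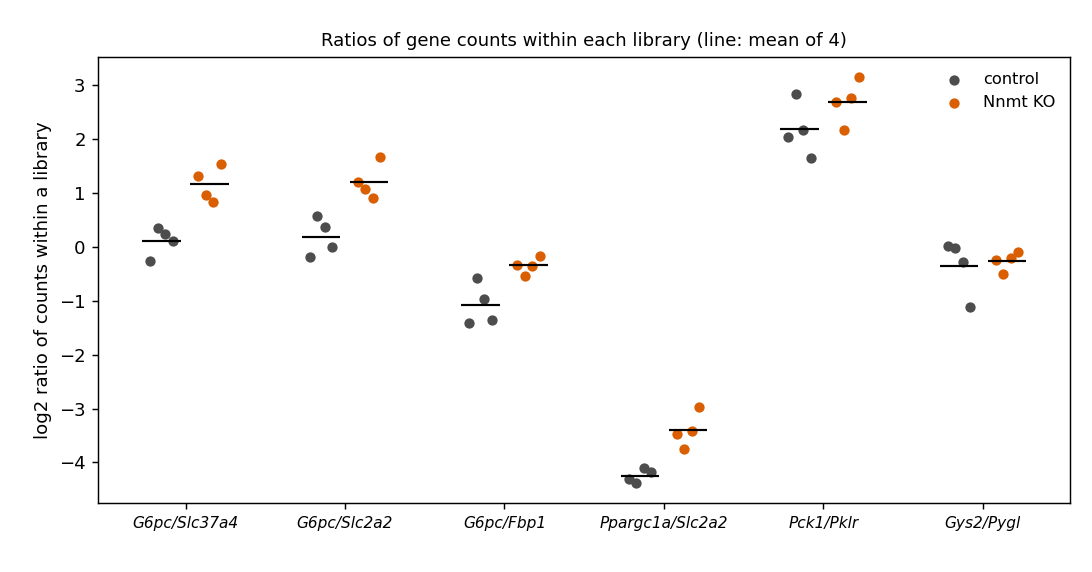
Log2 ratio of the counts of gene pairs within a library (vertical axis), which does not depend on scaling between libraries, for the 4 control and the 4 Nnmt KO libraries, with their mean as a line. The ratios of G6pc to Slc37a4, Slc2a2 and Fbp1 and of Ppargc1a to Slc2a2 do not overlap between genotypes, and those of Pck1 to Pklr and Gys2 to Pygl do.

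The ratio of G6pc counts to those of Pklr, the gene of the opposite direction, overlapped between genotypes, with log2 values of -0.14 to 0.90 in Nnmt KO mice and -1.51 to 0.18 in control mice. Of the 8 ratios computed, 4 did not overlap and were higher in every Nnmt KO mouse than in any control mouse. They were those of G6pc to Slc37a4, Slc2a2 and Fbp1 and that of Ppargc1a to Slc2a2. The other 4 ratios overlapped, among them G6pc to Pck1, at -2.71 to -2.25 in Nnmt KO mice and -3.55 to -2.67 in control mice. The first gene of each of these 4 ratios was G6pc or Ppargc1a, whose own levels did not overlap, so the ratios in part repeat that result. The pairs were chosen with the levels of the 9 genes known, so the ratios are given without a test. No share over other gene pairs was computed.

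The 9 genes differed in how they varied between mice. Nnmt KO library a had the lowest level among the Nnmt KO mice for 8 of the 9 genes, all but Pklr, and among the control mice libraries c and d were the lowest for 4 genes each. The ratio of the highest to the lowest of the 8 libraries was between 1.49 for Slc2a2 and 3.13 for G6pc. Over the 8 libraries, Pearson's r of log2 CPM was 0.876 between G6pc and Ppargc1a and 0.536 after the mean of each genotype was removed. Between Pck1 and Gys2 it was 0.886, and 0.949 with the means removed. For Pcx and Slc2a2 it was 0.851 and 0.855. These are descriptions over 8 libraries. Genes of the same library share its scaling factor and its mix of cells, whose part in these coefficients was not tested. Without Nnmt KO library a, 5 of the 9 genes (Pck1, Fbp1, G6pc, Ppargc1a and Pygl) were higher at a raw p under 0.05, as were 5.84% of all genes in that fit. At an adjusted p under 0.05 they were 2, G6pc and Ppargc1a, where 0.465% of all genes were called as higher, and 0 of the 9 were lower, where 0.498% were. With bulk RNA, fewer cells of a type and less RNA per cell cannot be told apart. The part of the hepatocyte share of each library in these differences was not tested.

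Levels can be compared between genes only per length, here as CPM per kb of the summed exon length in GENCODE's annotation M21 of GRCm38. In control mice the order was Pck1 (617 ± 147 CPM per kb, SD, n = 4), Fbp1 (318 ± 37.2), Pcx (168 ± 37.6), Pklr (146 ± 41.9), G6pc (109 ± 33), Gys2 (60.7 ± 20.5), Slc2a2 (39.3 ± 6.52), Pygl (28.6 ± 3.63) and Ppargc1a (1.8 ± 0.159). The neighbours Pcx and Pklr, Pklr and G6pc, Gys2 and Slc2a2, and Slc2a2 and Pygl overlapped in their ranges over the 4 control mice. In Nnmt KO mice G6pc, at 212 ± 48.1 CPM per kb, stood above Pcx (168 ± 39.6) and Pklr (137 ± 30.4), though its range overlapped theirs.
The liver genes were above their isozyme genes in both genotypes. In control mice, Pck1 stood beside 4.82 ± 0.705 CPM per kb for Pck2, G6pc beside 4.1 ± 0.142 for G6pc3, and Fbp1 beside 1.35 ± 0.571 for Fbp2. Gys2 stood beside 0.524 ± 0.0499 for Gys1, and Pygl beside 4.74 ± 2.28 for Pygb and 0.517 ± 0.117 for Pygm. Pklr stood beside 16.1 ± 3.3 CPM per kb for Pkm, and Slc2a2 beside 9.6 ± 0.757 for Slc2a1 (SD, n = 4 for each). G6pc2, the isoform gene of pancreatic islets, was at 0 in all Nnmt KO libraries and reached at most 0.0181 CPM per kb in a control library. Reads of similar isozymes could have been assigned to either gene by the authors' counting.

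Of the wider network, 107 other genes were listed in 4 groups, of which 103 were tested. At an adjusted p under 0.05, edgeR's test called 1 as higher in Nnmt KO mice (0.183% of all genes were) and 0 as lower (0.137% of all genes). At a raw p under 0.05, 10 were higher and 10 lower, where 5.45% of all tested genes were higher and 7.13% lower. The same shares are the background for the counts of each group that follow. The median log2 fold change of the 103 genes was 0.01, against 0.02 over all tested genes. DESeq2's Wald test called 6 as higher (Got1, Pdk4, Ppp1r3g, Irs2, Sik1 and Igfbp1), where it called 1.41% of all genes, and 3 as lower (Slc2a1, Stbd1 and Cebpa), where it called 1.91%. Of these 9, Sik1 was outside the 3 genes of smallest p in its group and is named after its values were seen.

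**Figure D4:**
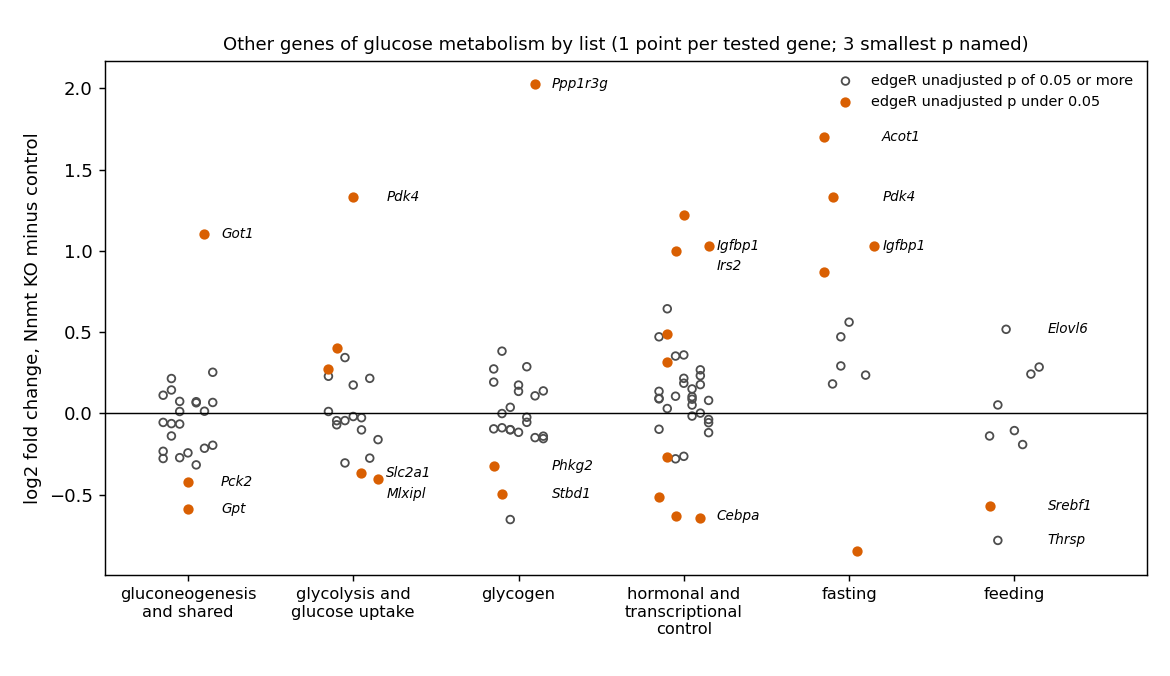
Log2 fold change of Nnmt KO over control (vertical axis) of the tested genes of 4 groups of glucose metabolism and of short lists of fasting and feeding genes, with the 3 genes of smallest p in each group named. Filled points have a raw p under 0.05 by edgeR, and Pdk4 (1.33) is the only gene among them with an adjusted p under 0.05.

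The gene that passed was Pdk4, whose kinase inactivates pyruvate dehydrogenase and so spares pyruvate from oxidation. Pdk4 was at 263, 145, 198 and 132 CPM in Nnmt KO a to d, and at 54, 70.8, 99.2 and 69.8 CPM in control a to d, with no overlap. It rose to 185 ± 59.8 CPM in Nnmt KO from 73.5 ± 18.8 CPM in control mice (SD, n = 4 per genotype), by a log2 fold change of 1.33 (SE 0.24, adjusted p = 0.0496 by edgeR). This p lay close to the threshold and was above 0.05 in 10 of 12 alternative analyses, where the log2 fold change was between 1.23 and 1.51. Over all 12 the log2 fold change of Pdk4 was between 1.11 and 1.51, the lowest from a fit with 1 library omitted. In the same group of glycolysis and glucose uptake, 3 of 19 tested genes were higher and 2 lower at a raw p under 0.05. Slc2a1, the gene of the transporter GLUT1, had a log2 fold change of -0.36 (SE 0.10, raw p of 0.00321, adjusted p = 0.137), with no overlap of its libraries. Mlxipl, which encodes ChREBP, the factor that binds ChoREs such as that of Pklr, was at 70 ± 12.9 CPM in Nnmt KO and 92.7 ± 7.56 CPM in control mice (SD, n = 4 per genotype), with overlap and an adjusted p of 0.236 by edgeR.

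Among 24 tested genes of gluconeogenesis and its shared enzymes, 1 was higher and 2 were lower at a raw p under 0.05. Got1, the cytosolic aspartate aminotransferase gene, which passes oxaloacetate carbon between mitochondria and cytosol, was at 602, 1116, 1612 and 1375 CPM in Nnmt KO a to d, and at 495, 896, 374 and 421 CPM in control a to d. Only control library b overlapped with the Nnmt KO mice. Its log2 fold change was 1.11 (SE 0.33, adjusted p = 0.183 by edgeR). Gpt, the alanine aminotransferase gene, had a log2 fold change of -0.59 (SE 0.21, adjusted p = 0.271), and Pck2 is given above.

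Among 24 tested genes of glycogen metabolism, 1 was higher and 2 were lower at a raw p under 0.05. Ppp1r3g, which encodes a subunit that directs protein phosphatase 1 to glycogen, was at 59.9, 30.3, 70.8 and 27.5 CPM in Nnmt KO a to d, and at 17, 17.2, 9.37 and 2.81 CPM in control a to d. The genotypes did not overlap, though the values varied widely within each. Its log2 fold change was 2.02 (SE 0.49, raw p of 0.00163, adjusted p = 0.107 by edgeR). Stbd1, which encodes a protein that binds glycogen, had a log2 fold change of -0.49 (SE 0.13, adjusted p = 0.141), and Phkg2, which encodes the catalytic subunit of the liver phosphorylase kinase, of -0.33 (SE 0.14, adjusted p = 0.365). The libraries of both did not overlap between genotypes.

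Among 36 genes of hormonal and transcriptional control, 5 were higher and 4 lower at a raw p under 0.05, against 5.45% and 7.13% of all tested genes. Cebpa, the gene of a transcription factor of hepatocyte metabolism, was between 153 and 187 CPM in Nnmt KO mice and between 227 and 303 CPM in control mice, a log2 fold change of -0.63 (SE 0.13, adjusted p = 0.0778 by edgeR). Igfbp1, a secreted binding protein gene repressed by insulin, was at 1439, 868, 1795 and 1321 CPM in Nnmt KO a to d, and at 618, 887, 687 and 470 CPM in control a to d, and overlapped through Nnmt KO library b and control library b. Its log2 fold change was 1.03 (SE 0.24, adjusted p = 0.0986). Irs2, which encodes an adaptor of the insulin receptor that fasting is known to induce, was at 30.8 ± 7.61 CPM in Nnmt KO and 15.4 ± 4.79 CPM in control mice (SD, n = 4 per genotype), with an adjusted p of 0.1.

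Short lists of fasting and feeding genes were set beside these values. The fasting list holds Igfbp1 and Pdk4, described above, so its count in part repeats their values. Of 10 fasting genes, 4 were higher (Pdk4, Igfbp1, Acot1 and Lpin1, the last named after its values were seen) and 1 lower at a raw p under 0.05, with a median log2 fold change of 0.52. Over all tested genes, 5.45% were higher and 7.13% lower at that p. Acot1, an acyl-CoA thioesterase gene and PPAR-alpha target, had a log2 fold change of 1.70 (SE 0.31, adjusted p = 0.0528 by edgeR) with 84.9 ± 20.7 CPM in Nnmt KO mice (SD, n = 4). The lower gene, named after its values were seen, was Fgf21, at -0.85 (SE 0.21, adjusted p = 0.116 by edgeR), which ATF4 also induces. DESeq2's test gave an adjusted p of 0.0118 for Fgf21 and of 7.99e-06 for Acot1. Of 9 feeding genes, 0 were higher and 1 lower, with a median of -0.11. The lower gene was Srebf1 (-0.57, SE 0.16), with an adjusted p of 0.16 by edgeR and 0.0334 by DESeq2. Thrsp was at -0.78 (SE 0.36, raw p of 0.0522 by edgeR) and Elovl6 at 0.52 (SE 0.25, raw p of 0.0582 by edgeR). The feeding state of the mice at collection was not given, and its part in the values of G6pc and Ppargc1a was not tested.

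Gluconeogenesis is known to be strongest around the portal vein. Of 10 periportal genes, 1 was higher and 0 were lower at a raw p under 0.05, and their summed level was 7278 to 13402 CPM in Nnmt KO mice and 7604 to 14503 CPM in control mice. Over all tested genes, 5.45% were higher and 7.13% lower at that p, which is the background for each such count in this paragraph. Of 10 pericentral genes, 1 was higher and 3 were lower, with a median log2 fold change of -0.23. Their summed level was 7650 to 12988 CPM in Nnmt KO mice and 12812 to 20164.5 CPM in control mice, with a narrow overlap. Cyp2e1, the most abundant of them and named after its values were seen, made up most of the summed level of this list. It was at 7763 ± 2205 CPM in Nnmt KO and 12356 ± 3713 CPM in control mice (SD, n = 4 per genotype), with overlap. As 1 of the 3 lower genes, it had a log2 fold change of -0.67 (SE 0.27, raw p of 0.0297, adjusted p = 0.328 by edgeR). Etnppl, the periportal gene of smallest p, had a log2 fold change of 1.02 (SE 0.33). Cyp2f2 was at -0.41 (SE 0.26) and Cps1 at 0.33 (SE 0.23). Of the 10 periportal genes, 6 lay above 0 and 4 below, with a median of 0.06. Of the 10 pericentral genes, 3 lay above 0 and 7 below. Among them, Lhpp was at -0.35 (SE 0.10), Slc1a2 at 0.52 (SE 0.16) and Axin2 at -0.43 (SE 0.15). None of the genes of these 2 lists had an adjusted p under 0.05 by edgeR. DESeq2's adjusted p was 0.0397 for Etnppl, 0.0499 for Slc1a2 and 0.0577 for Lhpp. Among the markers of other cells, 2 of 6 for stellate cells, 1 of 5 for cholangiocytes and 1 of 5 for lymphocytes were higher at a raw p under 0.05, against 0 of 5 each for macrophages and sinusoidal endothelium. The lymphocyte sum was 2.93 to 4.05 CPM in Nnmt KO mice and 2.06 to 2.45 CPM in control mice, without overlap. These markers were low, with means from 0.0783 CPM (Ms4a1, control mice) to 0.992 CPM (Nkg7, Nnmt KO mice). Of all single genes tested, 3.34% were higher without overlap. The sums of the other 4 lists overlapped between genotypes. Nnmt KO library a had the highest sum of the 8 libraries for stellate cells (511 CPM, against 167 to 288 CPM in the rest), cholangiocytes (278 CPM, against 49.9 to 177 CPM) and macrophages (994 CPM, against 442 to 935 CPM). The part of these cell types in the differences was not tested.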

How the data were processed

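Liver RNA of 4 Nnmt KO and 4 control mice was sequenced as paired-end reads. The authors deposited whole-number counts per gene, not normalized. The study's methods name HISAT2 for alignment and quantification, and the submitters' processing notes list HISAT2, StringTie and the build mm10. The annotation and strand setting are not given in the sources used here. Among low values, 4 was more frequent than 2 (2639 against 1703 values), so 1 count need not be 1 read, and no counting intervals are given.

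Genes were filtered by filterByExpr (minimum count 10), scaled by TMM and tested by edgeR 4.0.16's quasi-likelihood test in R 4.3.3, with DESeq2 1.42.0 as an alternative. The SE is the one implied by the F statistic. log2 CPM used a prior count of 2. The scripts were tested on counts simulated with the dispersions of the edgeR fit, at an adjusted p under 0.05. With 200 of 15291 genes changed by a log2 of 1, edgeR's test called 107 of them and 2 unchanged genes. DESeq2's test called 135 of them and 33 unchanged genes. With no gene changed, edgeR's test called 0 genes and DESeq2's test 16. DESeq2's test was thus the more liberal in these simulations.

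The genes and lists were chosen with earlier results of these data known. Named were the 9 genes, Nnmt, isozymes, the 3 genes of smallest p per list and the gene most correlated with each of the 9. Alternatives were no filter, other scaling (DESeq2's size factors or none beyond library size), DESeq2's Wald test, and the omission of each library in turn. GENCODE M21 (GRCm38) held 15146 of 15291 tested genes. Gk, Tkfc, Ciart and Adgre1 were not analysed here, and 1 further gene is not reported here.

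No label says that mice came from separate litters or cages, so neither could be taken into account. The p-values set the difference between the genotypes against the spread between the livers within a genotype, with information shared between genes. They hold for these 8 livers.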

Additional observations from a re-analysis of the deposited data

Results flagged for a closer look

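In 2 of 24 groups of 4 libraries, 1 library stood far from the other 3, where chance gives about 1.2 such groups. The first was G6pc among the control mice. Library b had 382 CPM while the remaining 3 lay between 213 and 232 CPM, so that the gap to its nearest neighbour made up 0.888 of the range. The second was the TMM scaling factor among the Nnmt KO mice, 1.21 in library a and 0.952 to 0.977 in b, c and d, with a gap of 0.903 of the range.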

How the results depend on the processing

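At an adjusted p under 0.05, 0 of the 9 genes were higher by edgeR, 1 (G6pc) with scaling by library size only, and 2 with DESeq2's test. The count ran from 0 to 2 over the fits with 1 library omitted, and the 2 came without Nnmt KO library a. At a raw p under 0.05, 3 were higher, and 2 to 5 with 1 library left out. The 5 came without Nnmt KO library a, where 5.84% of all genes were higher. For the other fits with 1 library left out, the share of all genes at a raw p was not computed. The number of all genes called was 49 with all libraries, 508 with DESeq2's test, 30 with DESeq2's size factors, 22 with library size only, 8 without a filter, and 6 to 149 with 1 library left out, the 149 without Nnmt KO library a.

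Of the other listed genes, the 1 higher call (Pdk4) became 0 with DESeq2's size factors, 0 with library size only, 0 without a filter, 6 with DESeq2's test, and 0 to 2 with 1 library left out. The 0 lower calls became 3 with DESeq2's test and stayed at 0 with any 1 library left out. At a raw p, the 10 lower genes became 6 to 13 with 1 library left out, the 6 without control library b. The share of all genes lower at a raw p was not computed for those fits, so these moves are no result about the list.

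The log2 fold changes of G6pc, Ppargc1a, Pck1, Fbp1, Gys2 and Pygl stayed above 0 in all 12 alternatives. Those near 0 changed sign: Pcx lay between -0.11 and 0.18, Pklr between -0.24 and 0.12, and Slc2a2 between -0.14 and 0.058 with 1 library left out, and Slc2a2 was at 0.0073 with library size only. The cause of these moves was not tested. No paired analysis was possible because the columns of the count table carry no mouse numbers.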

Other observations

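Clock genes, which also control glucose output, were listed because the hour of collection was not given. Of 13 tested, 1 was higher and 2 were lower at a raw p under 0.05 by edgeR, where 5.45% of all tested genes were higher and 7.13% lower. Nr1d2 had a log2 fold change of 0.33 (SE 0.15), Arntl of -0.79 (SE 0.36) and Nr1d1 of -0.40 (SE 0.18), with adjusted p-values between 0.374 and 0.391, and the libraries of all 3 overlapped between genotypes. Without control library d, Arntl was at -0.24 (raw p of 0.297 by edgeR), and without control library a, Nr1d1 was at -0.24 (raw p of 0.207 by edgeR). The raw p of Nr1d2 was also above 0.05 without Nnmt KO library c or d or control library b or d.

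The gene whose log2 CPM followed each of the 9 genes most closely over the 8 libraries was taken from 12240 genes with a mean of at least 1 CPM. For G6pc it was Ikbkap (Pearson's r = 0.978), for Ppargc1a Pdhx (0.972), a subunit gene of the pyruvate dehydrogenase complex, and for Pck1 Rdh9 (0.979). For Fbp1 it was Timm22 (0.969), for Pcx Il6ra (0.984), for Slc2a2 Trap1 (0.987), for Gys2 Gstp1 (0.97), for Pygl Coa5 (0.975) and for Pklr Tbccd1 (0.917). With 8 libraries and so many genes some coefficients of this size arise in any data, and they are given as a description.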
